A study of Mus musculus with 12 samples.

Results

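The immunoglobulin genes were described in thoracic aorta of atherosclerosis-prone mice. They were taken as the rows of the raw count table whose symbols begin with Ighv, Ighd, Ighj, Ighm, Ighg, Igha or Ighe, with Igkv, Igkj or Igkc, or with Iglv or Iglc, leaving out Ighmbp2, and Jchain was added. This gave 185 genes of 25284 gene rows. They comprised 82 heavy variable, 78 kappa variable and 3 lambda variable genes, 8 heavy and 4 light constant genes, 4 heavy and 4 kappa joining segments, 1 heavy diversity segment and Jchain.

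All 12 animals were male apolipoprotein E deficient (ApoE-/-) mice on a C57BL/6 background, aged 18 weeks, on a high fat diet enriched in cholesterol during the 8 weeks of treatment. Control mice (n = 6, here C1 to C6) received vehicle, cyclodextrin in saline, from osmotic minipumps under the skin. Treated mice (n = 6, here A1 to A6) received AZ6983, an agonist of the alpha 7 nicotinic acetylcholine receptor (α7nAChR), at 50 µmol per kg per day by the same route. Every group therefore shared the ApoE deletion, the diet and the pump, and no mouse with ApoE was compared. Total RNA of each aorta, depleted of ribosomal RNA, was sequenced from both ends in a strand-specific library, and each library is 1 mouse.

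Immunoglobulins are made by B cells and, in large amounts, by the plasma cells that B cells become. Each B cell joins 1 variable gene to a joining segment in its heavy chain locus, with a diversity segment between them, and likewise in a kappa or lambda light chain locus, so the variable genes in use mark the clones present. The heavy constant gene sets the antibody class. A naive B cell makes IgM and IgD from Ighm and Ighd, and class switching brings a gene for IgG, IgE or IgA next to the variable region instead. C57BL/6 mice carry Ighg2c in place of Ighg2a. In the atherosclerotic aorta B cells are known mainly from the adventitia, and IgM to oxidised lipids is among the best studied antibodies of the disease.

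The 8 heavy constant genes lie in a row on the minus strand of chromosome 12 (GRCm38), in the order in which a B cell can reach them by switching. Ighm (chr12:113418558-113422730) comes first, followed by Ighd (chr12:113406604-113416324), Ighg3 (chr12:113356224-113361232), Ighg1 (chr12:113325240-113330523), Ighg2b (chr12:113302965-113307933), Ighg2c (chr12:113285325-113288932), Ighe (chr12:113269260-113273248) and Igha (chr12:113254830-113260236). Igkc, the single kappa constant gene, lies at chr6:70726435-70726966 and Jchain, whose product joins IgM and IgA into polymers, at chr5:88519809-88527891. The 4 IgG genes are close relatives, and the hinge exon is where they differ most plainly to the eye, so it is printed here for the genes that the class results turn on. The sequences are the second exons of the GENCODE transcripts, read 5′ to 3′ on the coding strand. Capitals mark the in-frame cysteine codons, whose cysteines tie chains of the antibody to each other.
Ighg3 (chr12:113360529-113360576): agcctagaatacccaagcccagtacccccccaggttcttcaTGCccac
Ighg1 (chr12:113329844-113329882): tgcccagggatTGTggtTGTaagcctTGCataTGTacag
Ighg2b (chr12:113307261-113307326): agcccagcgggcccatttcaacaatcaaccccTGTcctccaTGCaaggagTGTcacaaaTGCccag
Ighg2c (chr12:113288263-113288325): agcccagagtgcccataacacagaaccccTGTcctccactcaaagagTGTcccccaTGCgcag
The Ighg1 hinge was the shortest of the 4, at 39 bases with 4 cysteine codons. The Ighg2b hinge had 66 bases with 4 cysteine codons, the Ighg2c hinge 63 bases with 3, and the Ighg3 hinge 48 bases with 1. None of the 75-base windows of Ighg1, 75 bases being the read length, occurred in another immunoglobulin gene.

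Variable genes are far more numerous and more alike. The last 60 bases of the variable exon are printed for some of those described further on, namely 3 of the most abundant, the leading kappa gene of A4 and members of 2 pairs known from innate-like B cells, with the last in-frame cysteine codon, where the third complementarity-determining region begins, in capitals. Bases after that codon are the germline part of the region that touches antigen.
Ighv4-1 (chr12:113948282-113948341, minus strand): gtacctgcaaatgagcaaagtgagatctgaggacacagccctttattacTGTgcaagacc
Ighv6-3 (chr12:114391712-114391771, minus strand): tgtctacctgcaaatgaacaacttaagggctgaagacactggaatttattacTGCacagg
Ighv11-2 (chr12:114048241-114048300, minus strand): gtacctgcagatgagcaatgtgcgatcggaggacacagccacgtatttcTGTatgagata
Ighv7-1 (chr12:113896408-113896467, minus strand): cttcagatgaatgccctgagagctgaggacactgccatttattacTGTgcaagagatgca
Igkv1-110 (chr6:68271208-68271267, plus strand): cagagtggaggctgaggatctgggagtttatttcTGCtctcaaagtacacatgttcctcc
Igkv14-126 (chr6:67896583-67896642, plus strand): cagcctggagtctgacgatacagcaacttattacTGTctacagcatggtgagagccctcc
Igkv4-74 (chr6:69184826-69184885, minus strand): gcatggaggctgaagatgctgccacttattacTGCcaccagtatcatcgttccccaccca
Of the 163 variable genes, 106 held at least 1 window of 75 bases that also occurs in another immunoglobulin gene, but the median share of such windows was 6.07%. Ighv1-72, at 71.7%, and Igkv6-20, at 59.5%, were the 2 genes above 50%, and their counts are uncertain.

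Library totals over gene rows ran from 25641329 to 29131708 counts in controls and from 23810036 to 35864666 in AZ6983 mice. Immunoglobulin counts were a small and uneven part of them, from 721 to 4869 counts in controls and from 1540 to 16126 in AZ6983 mice. The aortic label was matched by smooth muscle genes such as Myh11 and Acta2, whose list of 8 genes summed to between 11320 and 19308 CPM in every mouse, CPM being counts per 1000000 library counts after TMM scaling of the library sizes. A4 stood apart in another way. Its 14 thymocyte genes, among them Rag1, Rag2, Dntt and Ptcra, summed to 1447 CPM, against 15.2 to 57.3 CPM in controls, and against 22.7 to 79.2 CPM in the other AZ6983 mice, and its 12 T cell genes to 258 CPM against 4.89 to 19.99 CPM in controls. A1 had the highest sum of erythroid genes, 5291 CPM, against 550 to 3419 CPM in controls. The part that such tissue played in the immunoglobulin values of A4 and A1 was not tested, and values without A4 are given beside the results that it moves.

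The total immunoglobulin level differed between mice of 1 group by far more than between the groups. Summed over the 185 genes it ran from 25.1 CPM in C1 to 192 CPM in C2 among controls, with a mean of 95.8 ± 69.7 (SD, n = 6) and a median of 72.5 CPM. It ran from 59.0 CPM in A2 to 428 CPM in A4 among AZ6983 mice, with a mean of 171 ± 162 (SD, n = 6) and a median of 77.2 CPM. A4 and A1 lay above every control, whereas the other 4 AZ6983 mice lay inside the control range. The mean difference on the log2 scale was 0.68, and it was 0.31 without A4. In bulk tissue, fewer cells of a type and less RNA per cell cannot be told apart.

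The 4 mice with the most immunoglobulin RNA, A4, A1, C2 and C4, did not have the same amount of B cell RNA. The 18 B cell genes, among them Cd79a, Cd79b, Ms4a1 (the surface marker CD20) and Cd22, summed to 94.99 CPM in C2, the highest of the 12 mice, and to 19.7 CPM in C4, the lowest. The sums in A4 and A1 were 59.3 and 53.2 CPM, near the 57.9 CPM of C6, whose immunoglobulin total was 63.8 CPM. In A4, however, 23.3 CPM of the sum came from 1 gene, Ralgps2, which had 11.3 CPM in C6 and 10.8 CPM in A1. Besides Ralgps2, only Blk and Cd37 of the 18 genes were higher in A4 than in C6. The group ranges of this list were 19.7 to 94.99 CPM in controls and 30.4 to 59.3 CPM in AZ6983 mice.

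Whether the 6 AZ6983 mice differed from the 6 controls was tested gene by gene over the whole table with edgeR's quasi-likelihood test and the Benjamini-Hochberg adjustment. With edgeR's filter on low counts, 12 of the 185 immunoglobulin genes were among the 15857 tested: Ighm, Ighd, Ighg2b, Ighg2c, Igha, Igkc, Iglc1, Iglc2, Jchain, Iglv1, Ighv7-3 and Igkv1-117. None passed a false discovery rate (FDR) of 10%, as did 0% of all genes tested, and none had an unadjusted p under 0.05, against 10.2% of all genes. The estimate was higher in AZ6983 for 10 of the 12 and lower for Ighd and Igkv1-117, with a median of 0.67 on the log2 scale beside 0.01 over all genes tested. Without A4, the estimates of Ighg2b, Ighg2c, Igha, Iglc1 and Iglc2 turned negative as well.

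Because the filter left out most members, all 25284 rows were also fitted without it. Again no immunoglobulin gene passed 10% FDR, and 0% of all rows did. In this fit 148 of the 185 estimates were higher in AZ6983 and 37 lower, with a median of 1.30 (1.27 with genes at 0 in a whole group set to their bound) beside 0.02 over all rows. At an unadjusted p under 0.05, 36 members were higher, beside 6.45% of all rows, and 2 were lower, beside 2.9% of all rows. Much of this came from 1 mouse. Without A4, 103 estimates were higher and 78 lower, the median was 0.26, and 20 members were higher at that p, beside 5.58% of all rows, and 5 lower, beside 2.38%. Without C2, the control with the highest total, 61 were higher, beside 7.39% of all rows, and 2 lower, beside 3.7%.

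DESeq2, the tool the study itself used, called 92 of the 17592 genes to which it gave an adjusted p, or 0.523%. It gave an adjusted p to 55 of the 185 members and called 1, Ighg1. No immunoglobulin gene had groups that did not overlap, which held for 0.384% of all rows.

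Ighm, the IgM heavy chain gene, had the highest level per exonic length of the 8 heavy constant genes in every mouse. Its level ran from 16.9 to 82.5 CPM in controls (median 41.3) and from 27.2 to 155 CPM in AZ6983 mice, with a median of 36.3. A1 and A4 were above the highest control and the other 4 AZ6983 mice were among the controls. The log2 fold change was 0.56 (SE 0.51, edgeR adjusted p = 0.691), or 0.31 without A4 and 0.13 without A1. Ighd, which is transcribed together with Ighm in naive B cells, ran from 0.446 to 5.10 CPM in controls and from 1.25 to 2.63 CPM in AZ6983 mice, and its log2 fold change was -0.32 (SE 0.55, edgeR adjusted p = 0.853), or 0.24 without C2. Both ends of the control range of Ighd lay outside the AZ6983 range.

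**Figure D1:**
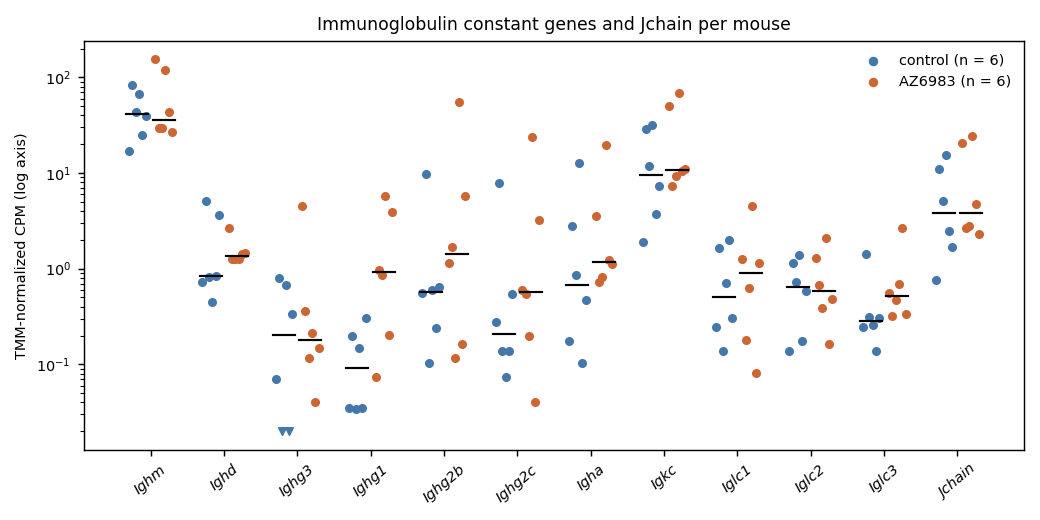
TMM-normalized CPM on a log axis for each constant gene other than Ighe, and for Jchain, in 6 control and 6 AZ6983 mice. Points are mice, black bars are group medians, and downward triangles are mice with 0 counts. The groups overlap for every gene, and for Ighg1 4 of the 6 AZ6983 mice lie above the highest control.

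Ighg1, the gene of the IgG1 heavy chain, had the smallest p of the members. It had 1, 5, 1, 4, 1 and 9 counts in C1 to C6, and 2, 27, 22, 218, 5 and 104 counts in A1 to A6. A2, A3, A4 and A6 were thus above every control, while A1 and A5 were inside the control range. In CPM the control mean was 0.126 ± 0.112 (SD, n = 6) and the AZ6983 mean 1.96 ± 2.33 (SD, n = 6), with medians of 0.0918 and 0.916 CPM. The log2 fold change in edgeR without the filter was 3.91 (SE 0.936), with an adjusted p over all rows of 0.529. In DESeq2 it was 3.96 (SE 0.886, adjusted p = 0.00893), past 10% FDR.

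The counts behind the Ighg1 difference were few and concentrated. The 6 controls held 21 counts in all and the 6 AZ6983 mice 378, of which A4 and A6 supplied most: 54.6% of all Ighg1 counts came from A4 and 80.7% from A4 and A6. Without A4 the log2 fold change was 3.20 in edgeR, and in DESeq2 it was 3.25 with an adjusted p of 0.0715, in a fit that called 0.359% of all genes. Without A6, DESeq2 gave 3.66 with an adjusted p of 0.0995, in a fit that called 0.117%. DESeq2 kept Ighg1 past 10% FDR in each of the 12 fits that left out 1 mouse, and edgeR in none of them, with adjusted p from 0.187 to 0.695. An exact two-sided permutation test of the mean CPM of Ighg1 gave p = 0.0238. It used every assignment of the 12 mice to groups, for which the smallest p possible is 0.00216. Ighg1 was itself on the study's list of changed genes from these mice, so these values are not independent evidence of its direction.

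The other IgG genes were also carried by few mice, Ighg2b and Ighg2c by A4 and Ighg3 by A1. Ighg2b had 3 to 248 counts in controls (median 16) and 3 to 2074 counts in AZ6983 mice, with a median of 39. A4 was far above the rest with 2074, followed by C2 with 248 and A6 with 155. Its log2 fold change was 2.45 (SE 1.41, edgeR adjusted p = 0.548), and without A4 it was -0.15 (SE 1.15). Ighg2c followed the same order, with 908 counts in A4, 197 in C2 and 87 in A6, and had medians of 6 counts in controls and 15.5 in AZ6983 mice. The log2 fold change of Ighg2c was 1.71 (SE 1.40, adjusted p = 0.654), and without A4 it was -0.67 (SE 1.22), so that the direction of both genes rested on A4. When C2 was left out instead, DESeq2 called both, Ighg2b at an adjusted p of 0.0473 and Ighg2c at 0.0667, in a fit that called 1.82% of all genes.

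Ighg3, a class made against polysaccharides and in innate-like responses, was high in A1 instead. It had 0 to 20 counts in controls and 1, 3, 4, 8 and 10 counts in the AZ6983 mice other than A1, which had 123. Its log2 fold change without the filter was 1.53 (SE 1.12, edgeR adjusted p = 0.607), and without A1 it was -0.78. Ighe, the gene of the allergic class, had 1 count in C5, 7 in A4 and 0 in the other 10 mice, so no difference was detectable at this depth.

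Igha, the gene of the mucosal class, was high in 1 mouse of each group. C4 had 344 counts and A4 had 732, and the group medians were 19.5 counts in controls and 30 in AZ6983 mice. The log2 fold change was 0.66 (SE 1.13, edgeR adjusted p = 0.851). Without A4 it was -0.95 (SE 1.03), and without C4 it was 2.37.

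Igkc, like Ighm, was highest in A4 and A1. It ran from 1.88 to 31.8 CPM in controls (median 9.63) and from 7.40 to 68.9 CPM in AZ6983 mice, with a median of 10.8. Both were above the highest control, and the log2 fold change was 0.89 (SE 0.744, edgeR adjusted p = 0.66), or 0.31 without A4. The lambda genes were fewer and behaved individually. Iglc1 was highest in A4 with 169 counts, and C5 was the highest control with 58. Iglc3 was highest in A5 with 66 counts, and C2 was the highest control with 36. The log2 fold changes were 0.65 (SE 0.835) for Iglc1, 0.34 (SE 0.621) for Iglc2 and, without the filter, 0.92 (SE 0.642) for Iglc3, with edgeR adjusted p between 0.594 and 0.861. Without A4 they were -0.35, -0.18 and 0.98.

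Iglv1, the most used lambda variable gene, had the smallest unadjusted p of the 12 filtered members, at 0.0637. It had 4 to 32 counts in controls (median 9.5) and 6 to 126 counts in AZ6983 mice, with a median of 23.5. A1, A4 and A5 were above the highest control, and the log2 fold change was 1.37 (SE 0.674, edgeR adjusted p = 0.505), or 0.75 without A4.

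Jchain is expressed in antibody-secreting cells and is low in naive B cells, so its relation to Igkc was examined beside that of B cell and plasma cell genes. Jchain ran from 0.767 to 15.3 CPM in controls (median 3.80) and from 2.31 to 24.4 CPM in AZ6983 mice, with a median of 3.78. The log2 fold change was 0.68 (SE 0.788, edgeR adjusted p = 0.764), or 0.13 without A4. Over the 12 mice, log2 CPM of Jchain and Igkc had a Pearson r of 0.957 (permutation p = 2e-05, adjusted over 4 relations 8e-05) and a Spearman rho of 0.916 (permutation p = 0.00012). Leaving out A1 and A4, farthest from the median of Jchain, r was 0.921. Within groups, r was 0.955 over the 6 controls (exact permutation p = 0.00833) and 0.968 over the 6 AZ6983 mice (exact permutation p = 0.0528).

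Ms4a1, on the surface of B cells, had a lower coefficient with Igkc, r = 0.418 (permutation p = 0.177) and rho = 0.287 (permutation p = 0.364). Mzb1, a chaperone of IgM assembly in plasma cells and marginal zone B cells, lay between, with r = 0.755 (permutation p = 0.00502, adjusted 0.01) and rho = 0.552 (permutation p = 0.0668), and r = 0.657 without A1 and C2. Mzb1 was itself low, with 3 to 25 counts in controls and 3 to 43 in AZ6983 mice. The difference between these correlations was not tested.

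The number of Igkc counts for each Ms4a1 count shows the same spread within single mice. It was 1.02 in C1, 2.17 in C6 and 2.96 in C2, but 9.64 in C3 and 26.7 in C4. Among AZ6983 mice it ran from 3.27 in A2 to 28.2 in A4, with a median of 5.57 beside 3.41 in controls. C2, with its high B cell sum, and C4, with the lowest, thus reached similar Igkc levels, 28.8 and 31.8 CPM.

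**Figure D2:**
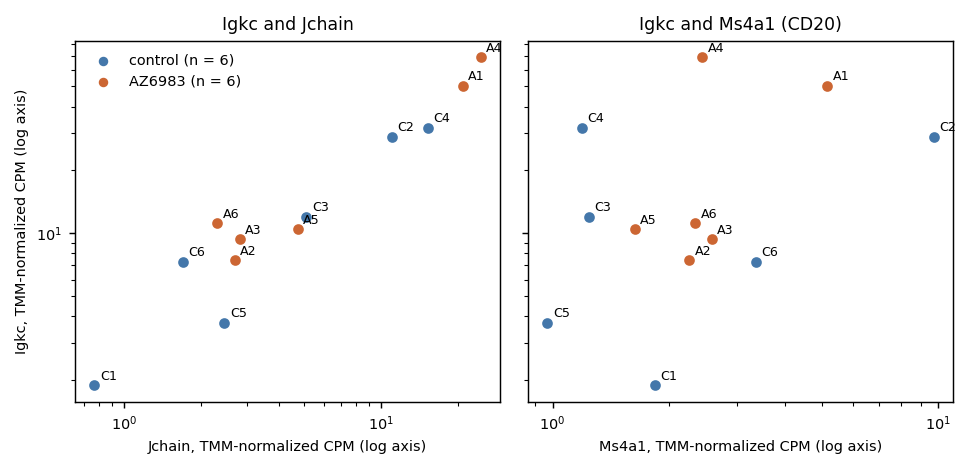
Igkc against Jchain (left) and against Ms4a1 (right), all in TMM-normalized CPM on log axes, 1 labelled point a mouse. Points follow a rising band for Jchain (r = 0.957), while for Ms4a1 (r = 0.418) C4 and A4 lie far above mice with similar Ms4a1.

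Class use was compared as shares, with the counts of each heavy constant gene divided by its exonic length, since Ighg2c has 1326 exonic bases and Ighg2b 2678. IgM made up 76.2% to 96.2% in controls, with a mean of 88.6% ± 7.25 (SD, n = 6), and 56.2% to 94.2% in AZ6983 mice, with a mean of 81.3% ± 16.1 (SD, n = 6). A4, at 56.2%, and A6, at 66.2%, were below every control. IgD took 0.574% to 8.11% in controls and 0.586% to 3.85% in AZ6983 mice. Ighm was not in a fixed proportion to light chain RNA. For each Igkc count it had 2.09 to 8.96 counts in controls, most in C1. In AZ6983 mice it had 1.72 to 4.13, fewest in A4. How far this moved the class shares was not tested.

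IgG took 4.66%, 17.3%, 0.65%, 1.47%, 1.498% and 3.80% in C1 to C6, and 3.11%, 8.58%, 3.33%, 36.6%, 0.769% and 28.3% in A1 to A6. A4 and A6 were above the highest control and the other 4 AZ6983 mice were inside the control range. The group means were 4.89% ± 6.26 (SD, n = 6) and 13.5% ± 15.2 (SD, n = 6), a difference of 8.56 percentage points that lies within 1 SD of the AZ6983 mice. The difference was 3.93 points without A4 and 5.59 points without A6. As plain counts without the length, IgG was 37.9% in A4 (95% exact binomial interval 36.9% to 38.9%) and 30.5% in A6 (27.8% to 33.2%). It was 0.971% in A5 (0.486% to 1.73%) and 0.607% in C3 (0.262% to 1.19%). These intervals cover counting error only, and the mice differed by far more than that.

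Within IgG, the subclass in use differed from mouse to mouse. IgG1 took 0.768% to 13.0% of IgG in controls, with a mean of 6.87% ± 4.49 (SD, n = 6), and 1.05% to 58.2% in AZ6983 mice, with a mean of 25.9% ± 21.7 (SD, n = 6). A2, A3, A5 and A6, at 24.1%, 58.2%, 42.2% and 24.3%, were above every control. A4, which held most Ighg1 counts, was not among them: IgG1 was 5.44% of its IgG, because Ighg2b and Ighg2c were higher still. Some of these shares rest on few counts. Ighg1 was 22 of 33 IgG counts in A3 (66.7%, exact binomial interval 48.2% to 82.0%) and 5 of 11 in A5 (45.5%, 16.7% to 76.6%), while in A4 it was 218 of 3208 (6.80%, 5.95% to 7.72%).

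IgA took 11.7% in C4 and 6.50% in A4, and 0.280% to 1.93% in the other 10 mice. Lambda took 6.83% to 41.6% of light chain constant counts per kb in controls and 6.07% to 24.6% in AZ6983 mice. C5, at 41.6%, C1, at 26.9%, and A5, at 24.6%, were the highest, and the group means of 18.7% ± 13.2 and 14.3% ± 6.24 (SD, n = 6 each) differed by less than either spread.

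**Figure D3:**
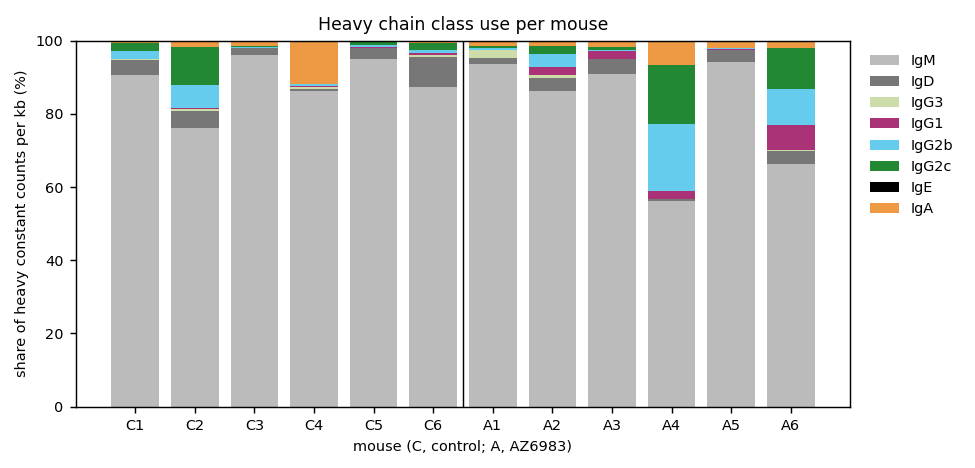
Share of each class among heavy constant counts per exonic kb, in percent, as 1 stacked bar a mouse with controls on the left. IgM is the largest share in every bar, IgG stands out in A4, A6 and C2, IgG1 in A6, A4, A2 and A3, and IgA in C4 and A4.

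Variable-gene diversity was compared at equal depth, because a mouse with more counts shows more genes. The heavy variable counts ran from 38 in C1 to 465 in C4 among controls and from 133 in A3 to 1928 in A4 among AZ6983 mice, and the genes detected from 18 in C3 to 64 in C2 and from 28 in A3 to 69 in A4. Drawn down to 38 counts, the expected number of heavy variable genes was 10.2 to 25.0 in controls, with a mean of 17.8 ± 5.36 (SD, n = 6), and 12.02 to 22.3 in AZ6983 mice, with a mean of 17.8 ± 4.04 (SD, n = 6). The means differed by 0.00255 genes, and the AZ6983 mice lay inside the control range. The top of that range was C1, which had only those 38 counts. The next control was C2 at 21.1 genes, below A4 at 22.2 and A6 at 22.3.

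Kappa variable genes gave a similar picture. Drawn down to 37 counts, 9.75 to 22.4 genes were expected in controls, with a mean of 16.7 ± 4.76 (SD, n = 6), and 15.7 to 21.2 in AZ6983 mice, with a mean of 18.1 ± 2.39 (SD, n = 6). The difference of 1.38 genes was smaller than either SD. C3 was the least diverse mouse in both chains, with 10.2 heavy and 9.75 kappa genes, followed by A5 for heavy genes, with 12.02, and by C4 for kappa genes, with 12.6.

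**Figure D4:**
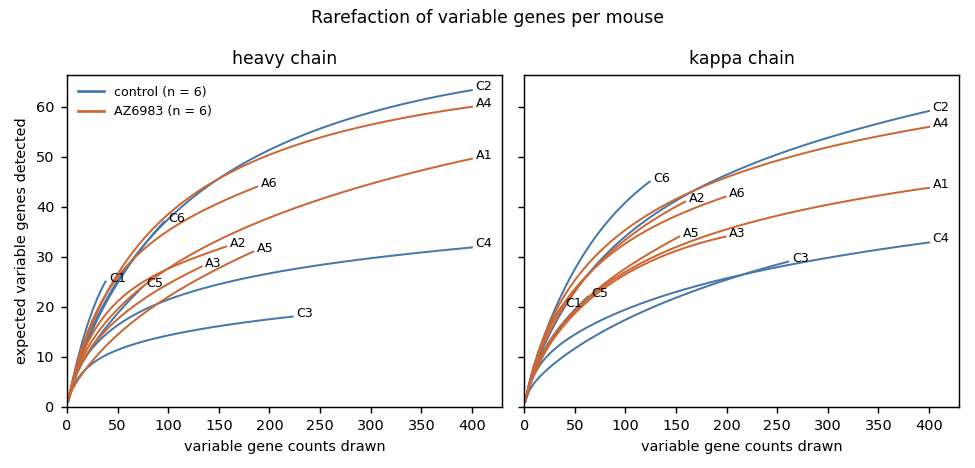
Expected number of heavy (left) and kappa (right) variable genes detected when a given number of variable-gene counts is drawn from each mouse, up to 400. Control and AZ6983 curves interleave, C3 is the lowest heavy curve beyond its first counts, and C2 and A4 run highest among the mice that reach 400 counts.

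Many variable genes had most of their counts in 1 mouse. Of the 163, 5 were detected in all 12 mice, 90 in 6 mice or fewer, and 10 in a single mouse. Detection depends on depth: those 10 had from 2 to 21 counts each, and C1 had only 38 heavy and 37 kappa variable counts. Among the 65 variable genes with at least 50 counts in total, 35 had more than 50% of them in 1 mouse. The median share of the top mouse was 53.3%. A4 was the top mouse for 36 of these 65, A1 for 13, C4 for 6 and C2 for 4. A4 also held 36.5% of all variable-gene counts, and its part in these shares was not tested.

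The variable genes with the highest mean level were led by different mice. Ighv4-1, with 500 counts, had 377 in A4, 78 in A5, 19 in C6 and 0 to 13 in the other 9. Igkv1-110, with 482 counts, had 264 in A1 and 131 in A4, and 1 to 31 elsewhere. Ighv6-3 had 134 counts in A1, 143 in A4 and at most 9 in any other mouse. None of these patterns divides the groups: in A2, A3 and A6 each of the 3 genes had 9 counts or fewer.

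Igkv1-117 was led by a control, C3, with 122 of its 311 counts, and A1 and A4 had 83 and 43. It passed the filter with a log2 fold change of -0.10 (SE 1.09, edgeR adjusted p = 0.98), and without C3 it was 1.63. Igkv15-103 had 120 counts in A1 and 30 in C4, Igkv4-59 had 83 in A4 and 66 in C4, and Ighv5-17 had 146 in A1 and at most 23 elsewhere. Igkv8-30 had 106 counts in A4 and 50 in C3.

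The leading heavy variable gene took 7.89% to 39.5% of heavy variable counts in controls and 9.04% to 42.4% in AZ6983 mice. In C3 it was Ighv1-39 with 88 of 223 counts (39.5%, exact binomial interval 33.0% to 46.2%), and in A5 it was Ighv4-1 with 78 of 184 (42.4%, 35.2% to 49.9%). In C2 it was Ighv1-66 with 91 counts, of which the gene had 13 in A1, 9 in A4, 1 in A3 and 0 in the other 8 mice. C1 had no single leader, since Ighv1-26 and Ighv1-55 had 3 counts each. The other leaders were Ighv11-2 in C4 and A2, Ighv7-3 in C5, Ighv4-1 in C6 and A4, Ighv5-17 in A1, Ighv1-7 in A3 and Ighv5-9-1 in A6.

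The leading kappa gene took 13.5% to 46.7% of kappa variable counts in controls and 11.3% to 38.6% in AZ6983 mice. C3 was again the most uneven, with Igkv1-117 at 122 of 261 counts (46.7%, exact binomial interval 40.6% to 53.0%). A4, the mouse with the most counts, was the least uneven at 11.3%, and yet its leader Igkv4-74 had 195 of its 197 counts there, with 1 count in C2 and 1 in A1. Igkv2-109 led A5 with 59 counts and Igkv5-48 led C2 with 103. The other leaders were Igkv15-103 in C1 and C6, Igkv14-126 in C4 and A2, Igkv17-121 in C5, Igkv1-110 in A1, Igkv4-59 in A3 and Igkv12-44 in A6.

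**Figure D5:**
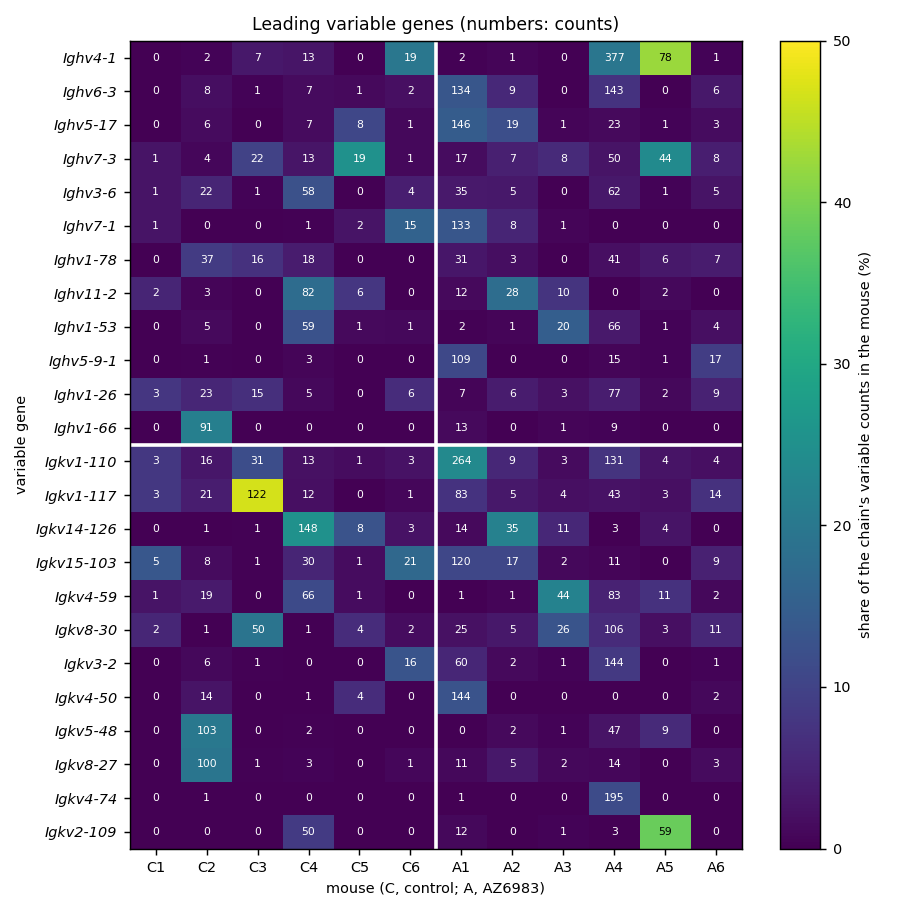
The 12 heavy (top) and 12 kappa (bottom) variable genes with the highest mean CPM, in 12 mice. Numbers are counts, and colour is the share of the mouse's heavy or kappa variable counts in percent, from 0 to 50. The brightest cells are Igkv1-117 in C3, Ighv4-1 in A5 and Igkv2-109 in A5, each a single mouse.

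Pairs of variable genes known from B-1 cells, the innate-like B cells that make natural IgM, were looked up after the values had been seen. Ighv11-2 pairs with Igkv14-126 in antibodies to phosphatidylcholine. Ighv11-2 had 82 counts in C4, 28 in A2, 12 in A1 and 10 in A3, and Igkv14-126 had 148 in C4, 35 in A2, 14 in A1 and 11 in A3. The 4 mice with the most counts of the heavy gene were thus the 4 with the most of the kappa gene, and in C4 and A2 both led their chain, with 17.6% and 25.3% of the variable counts in C4 and 17.8% and 22.01% in A2. In A4, which held the most immunoglobulin RNA, they had 0 and 3 counts.

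Ighv7-1 is the heavy chain gene of natural antibodies to phosphorylcholine, where it pairs with Igkv7-33. Ighv7-1 had 133 counts in A1, 15 in C6, 8 in A2 and 0 to 2 elsewhere, and Igkv7-33 had 7 counts in A1 and 0 in the other 11 mice. Ighv12-3, the other heavy gene known for antibodies to phosphatidylcholine, had 9 counts in A1, 2 in C6 and 0 elsewhere, and its partner Igkv4-91 was highest in A1 with 22 counts. Igkv4-91 had 0 counts in C6, but 5 each in C2, C4 and A4, where Ighv12-3 had 0. Ighv11-2, Ighv7-1 and Ighv12-3 each had 0 counts in A4 and A6, the 2 mice with the largest IgG shares, and also in C3, where IgG was 0.65%.

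By family, Ighv1 was the largest, with 40 genes and 38.6% of heavy variable counts, but its share ran from 31.2% to 67.9% in controls and from 17.4% to 55.6% in AZ6983 mice. Igkv4 was the largest kappa family, with 19 genes and more kappa variable counts than any other. The heavy joining segments had 0 to 18 counts a mouse in all and the kappa joining segments 0 to 17. Ighd4-1 had 3 counts, all in C2.

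Some further variable genes passed 10% FDR in DESeq2 when 1 mouse was left out, though not with all 12 mice. Ighv14-4, Igkv10-96 and Igkv5-43 did so in 3 of the 12 fits each, without C2, without A2 and without A5, fits that called 1.82%, 0.695% and 2.15% of all genes. Ighv9-3 did so without C2 and without A5, Ighv5-9-1 without A2 and without A3 (0.415% of all genes), Igkv8-30 without C3 (0.157% of all genes), and Ighv1-82, Igkv12-44 and Igkv4-80 without A5. Igkv10-96 had 0 to 7 counts in controls (median 1) and 1 to 67 counts in AZ6983 mice, with a median of 9.5. Its log2 fold change without the filter was 2.89 (SE 0.819), with an adjusted p of 0.529 in edgeR and 0.145 in DESeq2 over all 12 mice. Igkv5-43 had 0 to 3 counts in controls and 38, 0, 5, 19, 4 and 14 in A1 to A6, so that A2 had the fewest while 5 AZ6983 mice were above every control.

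Genes that act on immunoglobulins were described from lists of B cell and antibody biology, beside the 10.2% of all tested genes with an unadjusted p under 0.05. Of 17 tested B cell genes, 7 were higher and 10 lower in AZ6983, none at that p. Of 15 tested plasma cell genes, 9 were higher and 6 lower, and Edem1, which helps clear misfolded proteins from the endoplasmic reticulum, was higher at that p (log2 fold change 0.31, SE 0.126, edgeR adjusted p = 0.46), whereas none of the list reached that p without A4. The plasma cell list also holds genes that other aortic cells express, such as Xbp1 and Sdc1, and its sums were 549 to 616 CPM in controls against 509 to 728 CPM in AZ6983 mice.

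Of 15 tested genes for class switching and somatic hypermutation, 13 were higher and 2 lower, beside 52.4% of all tested genes estimated higher. The list summed to 460 CPM in A4, to 344 to 378 CPM in the other AZ6983 mice and to 325 to 364 CPM in controls. Without A4, 7 were higher and 8 lower. Prkdc, a kinase that joins broken DNA ends, was higher at that p (log2 fold change 0.27, SE 0.0737, edgeR adjusted p = 0.447), and 1 gene of the list reached that p without A4. Prkdc was also on the study's list of genes raised in these mice, so its values are not independent evidence.

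Of 11 tested receptors and transporters of immunoglobulins, 3 were higher and 8 lower, none at that p. Fcgrt, which encodes the receptor that protects IgG from breakdown, had a mean of 160 CPM (SD 7.95) in controls beside 158 CPM (SD 11.7) in treated mice. Fcgr2b, the inhibitory IgG receptor, had a log2 fold change of 0.12 (SE 0.108, edgeR adjusted p = 0.682). Of 5 tested cytokines of class switching and B cell survival, 4 were higher and 1 lower, and of 9 tested genes of lymphoid homing and stroma, 5 were higher and 4 lower, none at that p. Il4, which favours switching to IgG1 and IgE in mice, had 0 to 3 counts in controls and 1 to 5 in AZ6983 mice, and Ifng had 0 counts in 10 mice, 2 in A1 and 1 in A6, so neither could be compared at this depth. Il5 had no row.

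The 5 tested genes of the surrogate light chain and pre-B list were all estimated higher, 3 of them at that p, and they include Rag1 and Dntt, which thymocytes share and which were highest in A4 with 21669 and 5310 counts. All 11 tested thymocyte genes and 10 of 11 T cell genes were higher at that p, at a smallest edgeR adjusted p of 0.45, and they were led by A4. Without A4 none of either list reached that p, beside 9.49% of all genes, and 1 of the 5 genes tested from the pre-B list did. Of 9 tested neutrophil granule genes, 8 were higher at that p, with a smallest adjusted p of 0.428, and 8 without A4. None of 12 tested macrophage genes and none of 7 erythroid genes reached it. How far these other cells moved the immunoglobulin values was not tested.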

How the data were processed

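Paired-end 75-base reads of 12 thoracic aorta libraries were counted by the authors, and the deposited table holds raw read counts per gene symbol. The submitters' processing notes name CASAVA 1.8.2, STAR 2.5.2b, HTSeq 0.6.1p1 and the build mm10. The gene annotation used for counting is not given in the sources used here. Of 12 columns, 11 were matched to a mouse by its full number and A1 by 3 of the 4 digits of its number, and 0 columns belonged to no sample here. The 3 rows that name no gene (8.02% to 14.9% of counts outside any feature, 0.606% to 0.698% ambiguous and 18.1% to 23.2% not uniquely aligned) entered neither the library sizes nor the tests.

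AZ6983 and control mice were compared with the quasi-likelihood test of edgeR 4.0.16 on TMM-scaled counts, with filterByExpr and without it, at 10% FDR. DESeq2 1.42.0, limma-voom (limma 3.58.1), other size factors, a robust fit, 5% FDR and each mouse left out were the alternatives; DESeq2 with each mouse left out, coding lengths, single genes and gene lists with mice left out, and the count of members at an unadjusted p under 0.05 with each mouse left out were added after seeing the data. Totals, class shares and diversity have no p. The fits were tested on simulated data. Permutation tests of correlations over 12 mice used 100000 resamples, and 1 of the 4 correlations is not reported here. Sequences, positions and lengths came from GENCODE M21 on GRCm38, in which 185 of 185 symbols were found. Rows were present for 81 of 113 annotated Ighv genes, 77 of 100 Igkv genes and 3 of 3 Iglv genes, pseudogenes apart. No pair of libraries agreed within sampling noise (66 pairs, chi-square per degree of freedom 12.0 to 226).

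The members and gene lists were chosen with earlier results of these data known. Genes named are every constant gene, Jchain, the 10 variable genes with the highest mean CPM, the leading heavy and kappa variable gene of each mouse, members past 10% FDR in any fit over all genes, members at an unadjusted p under 0.05 in the filtered fit, and the defining or called genes of the lists. The B-1 pairs, Ighv1-72, Igkv6-20, Ighv1-55 and Ighd4-1 were chosen after their values were seen. So were Il4, Ifng, Fcgrt, Edem1, Prkdc, Cd93, Ralgps2, Blk, Cd37 and the shared marker genes named in the text.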

Additional observations from a re-analysis of the deposited data

Results flagged for a closer look

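In 42 groups of 6 mice (each constant gene but Ighe, Jchain, the total, class shares and diversity, in each treatment group), 7 had 1 mouse far from the other 5 by Dixon's test, where chance alone flags about 1 in 20, or 2.1. That rate holds for normally distributed values, and the class shares were taken as plain percentages. Ighg2b and the IgG share of C2 also rest partly on the same counts, so 2.1 is only a rough guide. Levels here are log2 of CPM plus 0.05.

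Ighd was 1.42 in A1, against 0.38 to 0.59 in the other AZ6983 mice. Ighg2b was 3.30 in C2, against -2.71 to -0.52 in the other controls, and the IgG share of C2 was 17.3%, against 0.65% to 4.66%. Iglc3 was 0.56 in C2, against -2.41 to -1.47 in the other controls, and 1.46 in A5, against -1.42 to -0.43 in the other AZ6983 mice. The IgA share was 11.7% in C4, against 0.280% to 1.83% in the other controls, and 6.50% in A4, against 1.49% to 1.93% in the other AZ6983 mice. C2 was also the mouse with the highest B cell sum, 94.99 CPM, and A4 the mouse with the highest thymocyte sum, 1447 CPM; their part in these values was not tested.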

How the results depend on the processing

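No immunoglobulin gene passed 10% FDR in edgeR without the filter, with DESeq2 size factors, at 5% FDR or in limma-voom, and these gave 0 calls over all genes. The limma-voom fit was run on the filtered genes, so it did not test Ighg1. DESeq2 called 92 genes and 1 member, Ighg1, with a log2 fold change of 3.96. With each mouse left out, edgeR called 0 to 27 genes (27 without A5, 1 without A1, 1 without C6) and no member, and DESeq2 called 20 to 388 genes and 1 to 8 members (8 without A5, 7 without C2). The log2 fold change of Ighg1 ran from 3.20 (without A4) to 4.39 in edgeR, with adjusted p from 0.187 to 0.695, and from 3.25 to 4.45 in DESeq2, with adjusted p from 0.000342 to 0.0995. Members higher at an unadjusted p under 0.05 ran from 20 (without A4) to 61 (without C2). The log2 difference in total level ran from 0.31 (without A4) to 0.95, and the difference in IgG share from 3.93 (without A4) to 11.1 percentage points. Chosen after seeing the data, the log2 fold changes of single genes with each mouse left out ran from -0.15 (without A4) to 4.62 (without C2) for Ighg2b, -0.67 (without A4) to 4.32 (without C2) for Ighg2c, -0.95 (without A4) to 2.37 (without C4) for Igha, -0.35 (without A4) to 1.11 for Iglc1, -0.18 (without A4) to 0.66 for Iglc2, -0.78 (without A1) to 2.03 for Ighg3, -0.54 to 0.24 (without C2) for Ighd and -1.08 to 1.63 for Igkv1-117 (positive without C3, A2, A3, A5 or A6); those of Ighm, Igkc, Iglc3, Jchain, Iglv1, Ighv7-3 and Igkv10-96 kept their sign. Differences in rarefied genes ran from -1.51 to 1.44 for heavy and from -0.01 to 2.52 for kappa genes. Without rarefaction, AZ6983 mice had on average 11.2 more heavy and 10.2 more kappa genes detected, and 13.3 and 13.0 more with at least 3 counts, beside a mean of 598 against 220 heavy variable counts. DESeq2 and edgeR without the filter differed in their call on Ighg1, and the cause was not tested. Depth limits the rarest members: Ighe and the joining segments had too few counts to compare.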
